A study of Rattus norvegicus with 30 samples.

Results

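Aldehyde dehydrogenases are enzymes that use NAD+ or NADP+ to oxidise aldehydes to acids. The members described here were the 8 genes Aldh1a1, Aldh3a2, Aldh2, Aldh1b1, Aldh1l1, Aldh7a1, Aldh5a1 and Aldh9a1, chosen by name: every probe set of a rat expression array was taken whose annotation gives that symbol and no other. This found 10 of the 31099 probe sets on the array, 3 of them for Aldh5a1 and 1 for each other gene, and all 8 genes were among the 11545 genes that passed a filter on low signal.

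The cells were primary hepatocytes of male Sprague Dawley rats, bought frozen, thawed onto collagen and covered with Matrigel. From day 3 of culture they received WY-14643 (pirinixic acid) at 8 µM or 200 µM, or vehicle labelled 1% DMSO, and RNA was taken after 24 h or 48 h. Each of the 6 groups (vehicle, 8 µM and 200 µM at 24 h, and the same at 48 h) held 5 wells with 1 Affymetrix array each, 30 arrays in all. The labels describe the wells of a group as independent cultures, with nothing on whether several animals supplied the cells, so p-values measure the spread between wells only. How much DMSO the treated wells received is unclear from the labels, which give a value for the concentrated stocks.

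WY-14643 activates PPARα, a nuclear receptor that pairs with a retinoid X receptor and drives genes of fatty acid oxidation in rodent liver. The enzymes work in different routes. Aldh1a1 turns retinal into retinoic acid in the cytosol, Aldh3a2 oxidises long-chain fatty aldehydes at the endoplasmic reticulum and the peroxisome, and Aldh2 and Aldh1b1 clear acetaldehyde and other short aldehydes in mitochondria. Aldh1l1 oxidises formyl-tetrahydrofolate in the folate cycle, Aldh7a1 works in lysine breakdown, Aldh5a1 in the breakdown of the transmitter GABA, and Aldh9a1 oxidises aminoaldehydes, among them a precursor of carnitine.

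Aldh1a1 and Aldh3a2 were the members that rose at both doses and both times, so the 250 bases before their annotated start are shown. They were read from RefSeq's promoter table (build GRCr8). Aldh1a1 lies on the plus strand and its stretch is chr1:227537370-227537619. Aldh3a2 lies on the minus strand and its stretch is chr10:46448336-46448585. Capitals mark matches to CCAAT or to the GC box GGGCGG, on either strand.
Aldh1a1: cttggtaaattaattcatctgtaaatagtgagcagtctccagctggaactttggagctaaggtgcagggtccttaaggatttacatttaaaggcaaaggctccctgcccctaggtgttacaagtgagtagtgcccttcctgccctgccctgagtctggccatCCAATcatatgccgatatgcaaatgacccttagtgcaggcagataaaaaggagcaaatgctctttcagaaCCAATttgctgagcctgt
Aldh3a2: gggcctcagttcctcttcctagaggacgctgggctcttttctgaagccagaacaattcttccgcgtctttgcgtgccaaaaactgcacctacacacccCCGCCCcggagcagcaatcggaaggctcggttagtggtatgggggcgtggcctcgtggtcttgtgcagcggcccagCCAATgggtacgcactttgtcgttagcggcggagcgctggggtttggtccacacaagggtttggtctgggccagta
The table held 7 of the 8 genes, all but Aldh2. The direct repeat AGGTCANAGGTCA, the element that PPARα and its partner are known to bind, was searched on both strands. It was in 0 of the 7 stretches as spelled and in 0 with up to 2 mismatches, against 0.0508% and 3.15% of all 33469 stretches of this length. Its repeated unit AGGTCA, which overlaps it, was in 0 of 7 against 14.1%, and TATAAA was in 0 of 7 against 12.9%. CCAAT was in 6 of 7, all but Aldh5a1, against 34.0%, and GGGCGG was in 4 of 7 (Aldh1l1, Aldh3a2, Aldh7a1 and Aldh9a1) against 30.5%. These are matches of letters in a short window and say nothing about binding in or outside it.

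The median signal lay between 383 and 439 on 29 of the 30 arrays. The array of 48 h vehicle replicate 4 stood apart, with a median of 764, 73.8% of probe sets above the filter level of 281 against 57.9% to 61.2%, and a median correlation of 0.896 with its group against 0.973 to 0.980. Where leaving it out ended or made a call of a member or of a listed gene named below, or moved a called value by over 1.5 times, the value without it is given. For β-actin the ratio of 3′ to 5′ signal, a sign of RNA length, was 2.86 ± 0.278 (SD, n = 5) in 24 h vehicle wells and 3.10 ± 0.214 and 3.31 ± 0.169 at 8 µM and 200 µM, and at 48 h it was 2.61 ± 0.313 against 3.26 ± 0.417 and 3.10 ± 0.201. For GAPDH the ratio was lower in treated wells, with 1.19 against 1.14 and 1.16 at 24 h and 1.18 against 1.15 and 1.15 at 48 h. The 8 comparisons of these ratios gave exact permutation p from 0.024 to 0.33, two-sided, and adjusted p from 0.076 to 0.33.

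All 7 hepatocyte markers (Alb, Apoa1, Ttr and others) were above the filter level on every array. Markers of other cells were read too. Above it on at least 5 arrays were 6 of 6 Kupffer cell markers with a probe set, 6 of 6 of sinusoidal endothelial cells, 5 of 7 of stellate cells, 2 of 5 of bile duct cells (Epcam on all 30 arrays, Krt19 on 6) and 2 of 5 of lymphocytes (Ms4a1 on 28, Cd3e on 12). Krt7 and Spp1 of bile duct cells, Lrat of stellate cells and Cd3d and Cd79b of lymphocytes were above it on 0. Of the 7 hepatocyte markers 0 rose, while 2 fell at each dose at 24 h and 3 at each dose at 48 h. Of all genes tested, 24.9% and 24.7% changed at 24 h for 8 µM and 200 µM, and 35.6% and 33.8% at 48 h. Without 48 h vehicle replicate 4, 4 hepatocyte markers fell at each dose at 48 h, against 37% and 36% of all genes. Whether these or the marker counts below differ from such shares was not tested. The hepatocyte sum was 359209 to 426385 in 24 h vehicle wells against 328273 to 367459 in treated ones, and at 48 h treated wells overlapped vehicle. The summed Kupffer cell markers were 20565 to 22795 in 24 h vehicle wells and 17305 to 19880 in treated ones, and at 48 h 13598 to 17340 against 12242 to 14346. Most of that sum was Cd14, with a mean signal of 13057 against 238 to 1472 for the other 5. Of these 6 markers 1 fell at each dose at 24 h, at 8 µM and 48 h 1 rose and 1 fell, and at 200 µM and 48 h 2 fell. The sinusoidal endothelial sum at 200 µM lay below vehicle at both times (3068 to 3931 against 3938 to 4974 at 24 h, and 1880 to 2544 against 2957 to 4982 at 48 h), with 2 and 3 of 6 markers lower, while at 8 µM it overlapped vehicle. The stellate sum was 3711 to 4094 in 24 h vehicle wells against 2935 to 3316 at 200 µM, and 4228 to 7093 in 48 h vehicle wells against 3121 to 4037 in treated ones. The bile duct sum was 8208 to 10411 in 24 h vehicle wells against 6975 to 8057 at 200 µM and overlapped vehicle at 8 µM and at 48 h, as did the lymphocyte sum throughout. Nearly all of the bile duct sum was Epcam, with a mean signal of 9356 against 23.7 to 224 for the others. The part of these shifts in the results below was not tested, and in such bulk samples fewer cells of a type and less RNA per cell cannot be told apart. All 8 measured PPARα reference targets rose in the 4 comparisons with vehicle, among them Ehhadh of peroxisomal fatty acid oxidation by 5.25 ± 0.17 on the log2 scale at 8 µM and 24 h.

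Against 24 h vehicle, 8 µM changed 4 of the 8 aldehyde dehydrogenases, with 2 higher and 2 lower, where 24.9% of all genes tested changed. Changed means an adjusted p under 0.05 in limma, with Benjamini-Hochberg adjustment over all 11545 genes. At 200 µM and 24 h 5 of 8 changed, 2 higher and 3 lower, against 24.7% of all genes. At 48 h 8 µM changed 4 of 8, 3 higher and 1 lower, against 35.6%. At 200 µM and 48 h 3 of 8 changed, 2 higher and 1 lower, against 33.8%. With all arrays both 48 h counts thus lay closer to the background. Without 48 h vehicle replicate 4 the 8 µM count at 48 h stayed 4 of 8, against 37%. The 200 µM count at 48 h was then 5 of 8, against 36%, farther from the background than with all arrays. The 24 h counts were then 4 and 6 of 8 for 8 µM and 200 µM, against 30.7% and 30.9%. The median log2 fold change of the 8 genes with all arrays was -0.07 and -0.18 at 24 h for 8 µM and 200 µM. At 48 h it was 0.10 and 0.09. Over all genes the 4 medians were -0.03, -0.02, -0.06 and -0.05. The members thus held both directions, and Aldh1a1, Aldh3a2 and Aldh2 were those called in all 4 comparisons. Fold changes are on the log2(signal + 16) scale, which understates the change of dim probe sets.

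**Figure D1:**
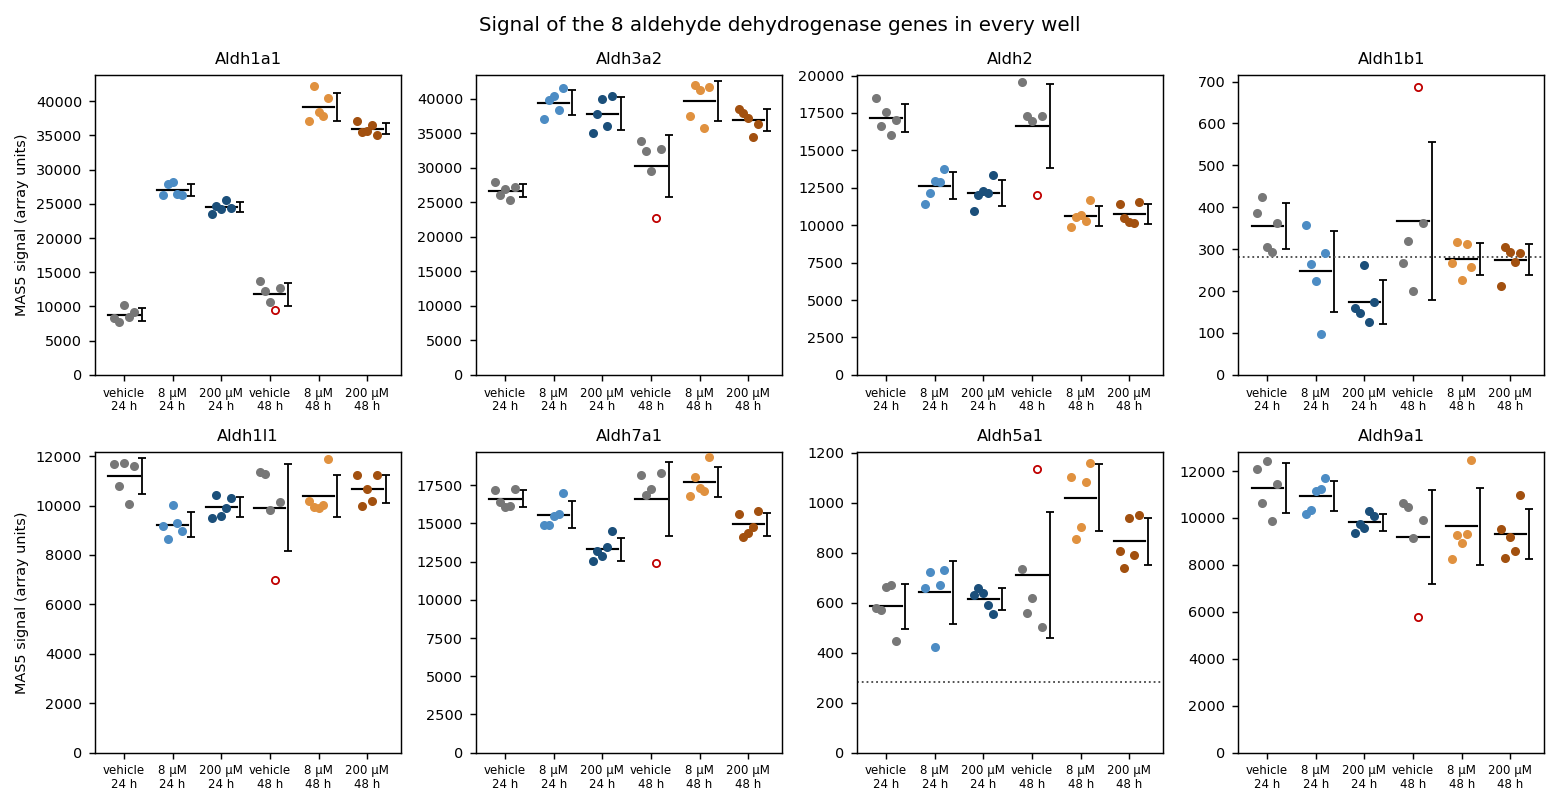
MAS5 signal (linear axis from 0) of each gene's probe set in every well, by group, with the mean as a line and the SD over 5 wells as a bar; the open red circle is 48 h vehicle replicate 4, and the dotted line is the filter level of 281 where it falls within reach of the values. Treated wells of Aldh1a1 lie between 23510 and 42176, above all 10 vehicle wells, while treated wells of Aldh2 lie below the vehicle wells of their time.

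Aldh1a1 showed the strongest response of the 8. Its signal in the 5 vehicle wells at 24 h was 8351, 7752, 10176, 8504 and 9202. At 8 µM it was 26271, 27907, 28193, 26444 and 26288, and at 200 µM 23510, 24738, 24203, 25538 and 24433. The treated wells lay far above the vehicle wells and did not overlap them. The rise was 3.08-fold at 8 µM (1.62 ± 0.07 on the log2 scale, SE, n = 5; adjusted p = 1.0e-18 in limma) and 2.79-fold at 200 µM (1.48 ± 0.07, adjusted p = 1.5e-17 in limma).

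At 48 h the vehicle wells of Aldh1a1 read 13766, 12243, 10630, 9533 and 12748. The wells at 8 µM read 37135, 42176, 38383, 37806 and 40448, and those at 200 µM 37048, 35556, 35619, 36494 and 35045. Vehicle and treated wells were again apart. The fold was 3.35 at 8 µM (1.74 ± 0.07 on the log2 scale) and 3.07 at 200 µM (1.62 ± 0.07). In vehicle alone Aldh1a1 was 1.33-fold higher at 48 h than at 24 h (0.42 ± 0.07, adjusted p = 1.3e-04 in limma), and centring each array on its median ended that call (0.27, adjusted p = 0.39). It was the 1 member of 8 that changed with time in vehicle, where 9.87% of all genes changed. With centring 0 of 8 members and 2.6% of all genes did.

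Aldh1a1 acts beside other genes of retinoid metabolism, the supply, oxidation and sensing of vitamin A. Of the 23 measured of 32 listed besides it, 7 changed at 8 µM and 24 h (5 rose), 9 at 200 µM and 24 h (6 rose), and 12 at 48 h at either dose (7 rose). For this list and those below, the shares of all genes changed were 24.9% and 24.7% at 24 h for 8 µM and 200 µM. At 48 h they were 35.6% and 33.8%, and without 48 h vehicle replicate 4 37% and 36%. Whether a list differs from these shares was not tested. Retsat, which saturates retinol, rose in all 4 comparisons by 1.65 to 2.22 on the log2 scale. Rxrg, a retinoid X receptor, rose by 1.15 to 1.48, and Rdh14, a retinol dehydrogenase, by 0.26 to 0.74. Rarb, a retinoic acid receptor known as a target of retinoic acid, fell in all 4, with log2 fold changes from -1.01 to -0.58. Aldh1a2, which makes retinoic acid in other tissues, passed in none of the 4 (-0.21, -0.09, 0.50 and 0.38), though without 48 h vehicle replicate 4 it was called higher at 48 h (0.79 ± 0.23, adjusted p = 5.7e-03, and 0.68 ± 0.23, adjusted p = 0.018 in limma). Without that array 12 and 11 listed genes changed at 48 h at 8 µM and 200 µM (8 and 9 rose). Aldh1a7, a close relative of Aldh1a1, was not named alone by any probe set, and whether that of Aldh1a1 also reads it was not tested.

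Aldh3a2, the fatty aldehyde dehydrogenase, also rose everywhere, by less. Its 24 h vehicle wells read 27961, 26041, 26955, 25402 and 27207. The wells at 8 µM read 37094, 39861, 40452, 38373 and 41543, and those at 200 µM 35117, 37835, 39950, 36036 and 40442. No treated well fell to the level of a vehicle well. The rise was 1.48-fold at 8 µM (0.56 ± 0.07 on the log2 scale, adjusted p = 2.9e-07 in limma) and 1.42-fold at 200 µM (0.50 ± 0.07).

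At 48 h Aldh3a2 read 33947, 32461, 29524, 22767 and 32806 in vehicle. It read 37529, 42078, 41244, 35755 and 41787 at 8 µM and 38602, 37969, 37223, 34425 and 36411 at 200 µM. The groups stayed apart, though the highest vehicle well came near the lowest treated one. The rise was 1.32-fold at 8 µM (0.40 ± 0.07 on the log2 scale) and 1.23-fold at 200 µM (0.30 ± 0.07, adjusted p = 1.9e-03 in limma). The lowest vehicle value is that of replicate 4, and without it the 48 h rises were 0.30 ± 0.05 and 0.20 ± 0.05 and still called.

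Of 12 other measured genes of fatty aldehyde and sphingolipid breakdown, of 17 listed, 8 changed at each dose at 24 h (6 rose), 9 at 8 µM and 48 h (7 rose) and 8 at 200 µM and 48 h (7 rose). The 48 h counts were 10 (8 rose) and 7 (6 rose) without 48 h vehicle replicate 4. Hacl1, which cleaves the chain in phytanic acid breakdown and so yields a fatty aldehyde, rose by 2.31 to 2.95 on the log2 scale. Cyp4a1 and Cyp4a3, fatty acid omega-hydroxylases, rose by 3.16 to 3.86 and by 2.58 to 3.03. Cyp4f1, another omega-hydroxylase, went the other way and fell in all 4, with log2 fold changes from -0.86 to -0.52.

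Aldh2, the main mitochondrial enzyme for acetaldehyde, was the member that fell in all 4 comparisons. Vehicle wells at 24 h read 18531, 16662, 17557, 16043 and 17036. Wells at 8 µM read 11421, 12186, 12934, 12893 and 13784, and at 200 µM 10938, 12018, 12318, 12160 and 13374. The ranges of vehicle and treated wells were separate. Aldh2 fell to 0.736 of vehicle at 8 µM (-0.44 ± 0.08 on the log2 scale, adjusted p = 8.6e-05 in limma) and to 0.708 at 200 µM (-0.50 ± 0.08).

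In 48 h vehicle wells Aldh2 read 19584, 17282, 16968, 11988 and 17278. At 8 µM it read 9871, 10554, 10685, 10273 and 11684, and at 200 µM 11405, 10475, 10203, 10177 and 11532. Replicate 4 was the lowest vehicle well and still lay above every treated one. The levels were 0.646 and 0.655 of vehicle (-0.63 ± 0.08 and -0.61 ± 0.08 on the log2 scale). Without replicate 4 the falls were -0.74 ± 0.06 and -0.72 ± 0.06. Median centring kept the direction of Aldh2 but ended its call in all 4 comparisons, with adjusted p from 0.067 to 0.14 in limma. The log2 fold changes were then -0.41 and -0.48 at 24 h and -0.44 and -0.44 at 48 h, close to those above at 24 h and smaller at 48 h. The share of all genes changed was also lower with centring, 12.7% and 11.7% at 24 h and 24.7% and 22.9% at 48 h. Centring moved the array of replicate 4 most, its median being 764 against 383 to 439. Its part in the lost calls was not tested. Without replicate 4 and without centring, adjusted p for Aldh2 ran from 7.5e-12 to 1.9e-07 in limma.

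Aldh1b1, the mitochondrial relative of Aldh2, was dim. Its 24 h wells read 387, 426, 306, 294 and 362 in vehicle, 358, 265, 223, 97.4 and 292 at 8 µM, and 159, 147, 262, 127 and 174 at 200 µM. All 5 vehicle wells and 0 of the 5 wells at 200 µM were above the filter level, and those 2 groups did not overlap. Aldh1b1 fell at 200 µM and 24 h (-0.99 ± 0.29 on the log2 scale, adjusted p = 8.8e-03 in limma). That value compares dim signals, and with the filter level in place of the treated wells the fall was at least 1.24-fold. The other 3 comparisons were not called (-0.59 ± 0.29, -0.28 ± 0.29 and -0.29 ± 0.29). Its 48 h vehicle wells ran from 199 to 687, the highest being replicate 4, and without that array the 48 h differences were -0.03 and -0.04.

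The alcohol and aldehyde list around Aldh2 had 16 measured genes of 21. At each dose 9 changed at 24 h (5 rose), and at 48 h 9 changed at 8 µM, all higher, and 10 at 200 µM (9 rose). Without 48 h vehicle replicate 4 the 48 h counts were 10 (9 rose) and 11 (7 rose). Cyp2e1, which oxidises ethanol, rose by 0.60 ± 0.12 and 1.16 ± 0.12 on the log2 scale at 24 h and by 0.54 ± 0.12 and 1.83 ± 0.12 at 48 h. Catalase (Cat) rose by 0.41 to 0.69. Acss2, which activates the acetate that aldehyde oxidation yields, fell at 24 h (-0.50 and -0.76) and at 200 µM and 48 h (-0.56), and at 8 µM and 48 h it was not called (-0.04). Aldh2 thus fell in cells where Cyp2e1 and Cat rose.

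Aldh1l1, the cytosolic formyl-tetrahydrofolate dehydrogenase, differed from vehicle at 1 dose and time. It read 11687, 10794, 11735, 10065 and 11616 in 24 h vehicle wells and 9173, 8653, 10019, 9288 and 8949 at 8 µM. The highest treated well lay just below the lowest vehicle well. Aldh1l1 fell to 0.825 of vehicle (-0.28 ± 0.08 on the log2 scale, adjusted p = 0.013 in limma), a call that median centring ended (-0.24, adjusted p = 0.47). With centring 12.7% of all genes changed in this comparison, against 24.9% without. At 200 µM the wells ran from 9507 to 10426 and overlapped vehicle (-0.17 ± 0.08, adjusted p = 0.16). That difference was called once 48 h vehicle replicate 4 was left out (adjusted p = 0.021 in limma). At 48 h no call was made (0.08 ± 0.08 and 0.12 ± 0.08).

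Aldh1l1 belongs to folate one-carbon metabolism, where 23 of 26 other listed genes were measured. At 24 h 7 changed at 8 µM (2 rose) and 9 at 200 µM (5 rose), and at 48 h 10 changed at either dose (7 rose). With 48 h vehicle replicate 4 left out, the 48 h counts were 8 (4 rose) and 13 (6 rose). Aldh1l2, its mitochondrial counterpart, fell at 24 h (-0.71 ± 0.20 and -0.66 ± 0.20 on the log2 scale) and was not called at 48 h. Gldc and Amt are parts of the glycine cleavage system, which feeds the folate pool. Gldc fell at 24 h (-0.81 and -1.21) and was not called at 48 h (0.13 and -0.20; without replicate 4 of the 48 h vehicle -0.34 at 200 µM, adjusted p = 8.6e-04 in limma), while Amt rose in all 4 comparisons by 0.47 to 0.82. Mthfd1, a cytosolic folate enzyme, fell in 3 of the 4, with log2 fold changes from -0.35 to -0.15, and had -0.04 at 200 µM and 24 h.

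Aldh7a1, which oxidises the semialdehyde formed in lysine breakdown, fell at 200 µM and 24 h. Vehicle wells read 17173, 16415, 16096, 16156 and 17256 and wells at 200 µM 12515, 13224, 12847, 13433 and 14494, with no overlap. The fall was -0.32 ± 0.07 on the log2 scale (adjusted p = 7.8e-04 in limma), to 0.800 of vehicle, and median centring ended this call as well (-0.31, adjusted p = 0.29). With centring 11.7% of all genes changed in this comparison, against 24.7% without. At 8 µM the wells ran from 14880 to 17016 and were not called against vehicle (-0.09 ± 0.07). At 48 h the differences were 0.11 ± 0.07 at 8 µM and -0.14 ± 0.07 at 200 µM, neither called.

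Aldh7a1 was also the member whose level differed between the doses. At 48 h it read 16812, 18053, 17320, 17123 and 19324 at 8 µM and 15610, 14120, 14408, 14788 and 15819 at 200 µM. Every well at the higher dose lay below every well at the lower one, at 48 h and also at 24 h. The difference was -0.25 ± 0.07 on the log2 scale at 48 h (adjusted p = 0.041 in limma), 1 of 8 members where 4.79% of all genes changed, and -0.23 ± 0.07 at 24 h (adjusted p = 0.083), where 0 of 8 members and 3.02% of all genes changed. At an unadjusted p under 0.05 Aldh7a1 was the 1 member in each. The 48 h call held in 12 of 23 other settings and was lost, among others, without replicates 2 to 5 of the 8 µM group in turn and without replicates 2 to 4 of the 200 µM group. Without 48 h vehicle replicate 4 both differences were called (adjusted p = 1.6e-03 at 24 h and 5.0e-04 at 48 h), as was the fall at 200 µM and 48 h against vehicle (-0.24 ± 0.05, adjusted p = 2.2e-04).

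The other members did not pass between doses. Aldh1a1 was lower at 200 µM than at 8 µM in every well at both times, by a log2 difference of -0.14 (95% interval -0.29 to 0.00, adjusted p = 0.42 in limma) at 24 h and -0.12 (-0.27 to 0.02, adjusted p = 0.46) at 48 h. For Aldh3a2 the differences were -0.06 (-0.21 to 0.09) and -0.10 (-0.25 to 0.05), and for Aldh2 -0.06 (-0.23 to 0.11) and 0.02 (-0.15 to 0.19). For Aldh1a1, Aldh3a2 and Aldh2 the intervals leave room for dose differences of up to about 0.3 on the log2 scale. They were wider for Aldh1b1, at -0.99 to 0.18 at 24 h and -0.59 to 0.58 at 48 h. For Aldh5a1 they were -0.38 to 0.31 and -0.61 to 0.08, and for Aldh9a1 -0.39 to 0.08 and -0.28 to 0.19.

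Aldh5a1, the succinic semialdehyde dehydrogenase, rose at 8 µM and 48 h. The probe set used for the gene, 1379900_at, read 735, 560, 619, 1134 and 503 in 48 h vehicle wells, 1103, 855, 903, 1082 and 1158 at 8 µM and 808, 738, 937, 793 and 952 at 200 µM. The vehicle value of 1134 is that of replicate 4, and the other 4 vehicle wells lay below every treated well. The rise was 0.56 ± 0.17 on the log2 scale at 8 µM (adjusted p = 8.2e-03 in limma) and the difference at 200 µM was 0.30 ± 0.17 (adjusted p = 0.18). Without replicate 4 both were called, at 0.74 ± 0.15 and 0.48 ± 0.15. Averaging the gene's 3 probe sets ended the call at 8 µM (0.47, adjusted p = 0.087). At 24 h neither dose was called (0.12 ± 0.17 and 0.08 ± 0.17).

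The 3 probe sets of Aldh5a1 did not give the same picture. The second, 1371062_at, read 655, 555, 386, 82.7 and 692 in 48 h vehicle wells, 724, 881, 899, 950 and 897 at 8 µM and 661, 918, 579, 702 and 806 at 200 µM. Here replicate 4 was the lowest vehicle well, where in 1379900_at it was the highest. Tested as a probe set of its own, 1371062_at rose by 1.13 ± 0.32 on the log2 scale at 8 µM (adjusted p = 6.7e-03 in limma) and by 0.87 ± 0.32 at 200 µM (adjusted p = 0.040). Without replicate 4 the differences were 0.62 ± 0.20 (adjusted p = 0.015) and 0.37 ± 0.20 (adjusted p = 0.18 in limma), so that only the rise at 8 µM was still called. The third, 1391657_at, ran from 35.9 to 480 in 29 wells, around the filter level, with 1488 in replicate 4 of the 48 h vehicle, and was not called in any of the 4 comparisons (-0.29 ± 0.55 and -0.84 ± 0.55 at 48 h, and 0.21 ± 0.52 and -0.34 ± 0.52 without replicate 4).

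**Figure D2:**
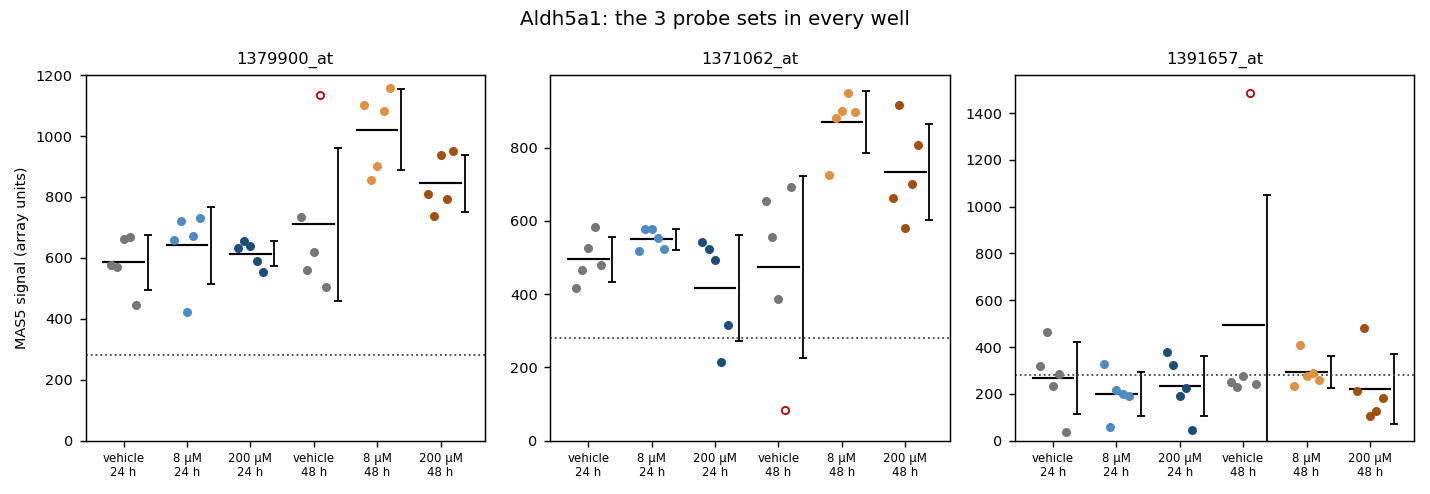
MAS5 signal (linear axis from 0) of the 3 probe sets of Aldh5a1 in every well, with the mean as a line, the SD over 5 wells as a bar and the filter level of 281 as a dotted line. The open red circle, 48 h vehicle replicate 4, is the highest vehicle well at 1134 and 1488 in the left and right panel and the lowest at 82.7 in the middle one; the SD bar of its group in the right panel runs below 0 and ends at the axis.

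In GABA breakdown 6 other genes of 9 listed were measured, and 3 changed at each dose and time except 8 µM at 48 h, where 4 did. At 48 h it was 4 at both doses without vehicle replicate 4. Slc6a13, a carrier that takes GABA into hepatocytes, rose in all 4 comparisons by 1.42 to 1.87 on the log2 scale. Abat, the transaminase that makes the semialdehyde used by Aldh5a1, fell in all 4, with log2 fold changes from -0.92 to -0.71. Maob, an amine oxidase, fell as well, from -0.47 to -0.24.

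Aldh9a1 was not called in any comparison with vehicle. Its 24 h wells read 12097, 10621, 12437, 9857 and 11433 in vehicle, 10185, 10344, 11136, 11253 and 11703 at 8 µM and 9376, 9727, 9571, 10308 and 10066 at 200 µM, and at both doses they overlapped vehicle. The differences were -0.04 ± 0.11 and -0.20 ± 0.11 on the log2 scale, and 0.09 ± 0.11 and 0.05 ± 0.11 at 48 h. The 95% interval at 200 µM and 24 h ran from -0.43 to 0.04. In vehicle the 48 h level was lower by -0.33 ± 0.11 (adjusted p = 0.068 in limma), and by -0.17 ± 0.09 without replicate 4.

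Aldh7a1 and Aldh9a1 share a list of lysine, choline and carnitine routes with 17 measured genes of 19. At 24 h 11 changed at either dose (6 rose at 8 µM, 4 at 200 µM), and at 48 h 11 changed at 8 µM (6 rose) and 14 at 200 µM (7 rose). Without 48 h vehicle replicate 4 the 48 h counts were 13 (6 rose) and 15 (7 rose). Slc22a5, the carnitine uptake carrier, rose by 1.80 to 2.03 on the log2 scale, Slc25a20, the mitochondrial carnitine carrier, by 1.11 to 1.56, and Pcyt1a, of phosphatidylcholine synthesis, by 0.39 to 0.91. The carnitine carriers thus rose in all 4 comparisons, while Aldh9a1, on the route that makes carnitine, passed in none.

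The 12 other family genes listed were read the same way, and 8 were measured. Aldh1a3 was below the filter, and Aldh1a7, Aldh3b2 and Aldh8a1 had no probe set with their symbol alone. At 24 h 4 of 8 changed at each dose (1 rose), and at 48 h 4 changed at 8 µM and 3 at 200 µM, all lower. At 48 h it was 3 at each dose without vehicle replicate 4, Aldh1a2 higher and 2 lower. Aldh4a1, the mitochondrial enzyme of proline breakdown, fell in all 4 comparisons (-0.92, -1.09, -0.80 and -0.52 on the log2 scale, each with an SE of 0.09). Aldh3b1, for medium and long-chain aldehydes, fell in all 4 as well, from -0.55 to -0.38, but without that array it was not called at 200 µM and 48 h (-0.25 ± 0.12, adjusted p = 0.094 in limma). Aldh16a1 rose at 24 h (0.45 and 0.59) and was not called at 48 h (-0.02 and -0.09). Aldh3a1 was dim. It read 368, 189, 302, 1329 and 425 in 48 h vehicle wells, the highest being replicate 4, 172, 104, 132, 303 and 128 at 8 µM, and 40.9 to 216 at 200 µM, where 0 of 5 wells were above the filter level. It was called lower at both doses (-1.32 ± 0.51 and -1.90 ± 0.51). Aldh3a1 met the filter of at least 5 arrays only through the 48 h vehicle wells, 4 of 5 being above its level. Its 48 h calls, which the counts above include, are therefore not independent of the filter. The fold changes compare dim signals, with 1 of 5 wells above the filter level at 8 µM. With the filter level in place of the treated wells, and replicate 4 included, either fall was at least 1.45-fold. This bound rests on the vehicle mean, which replicate 4 raises, and does not hold as a floor without that array. Without replicate 4 the fall at 200 µM was still called (-1.49 ± 0.50, adjusted p = 0.019 in limma) and the difference at 8 µM was not (-0.91 ± 0.50, adjusted p = 0.17). Over the 10 arrays of those 2 groups left out in turn, adjusted p ran from 0.0018 to 0.019 at 200 µM and from 0.020 to 0.17 at 8 µM, where 7 of 10 ended the call. Aldh18a1, of proline synthesis, fell at 8 µM and 48 h (-0.34, adjusted p = 0.048 in limma; -0.23 and adjusted p = 0.18 without replicate 4), and Aldh6a1, of valine breakdown, passed in none.

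**Figure D3:**
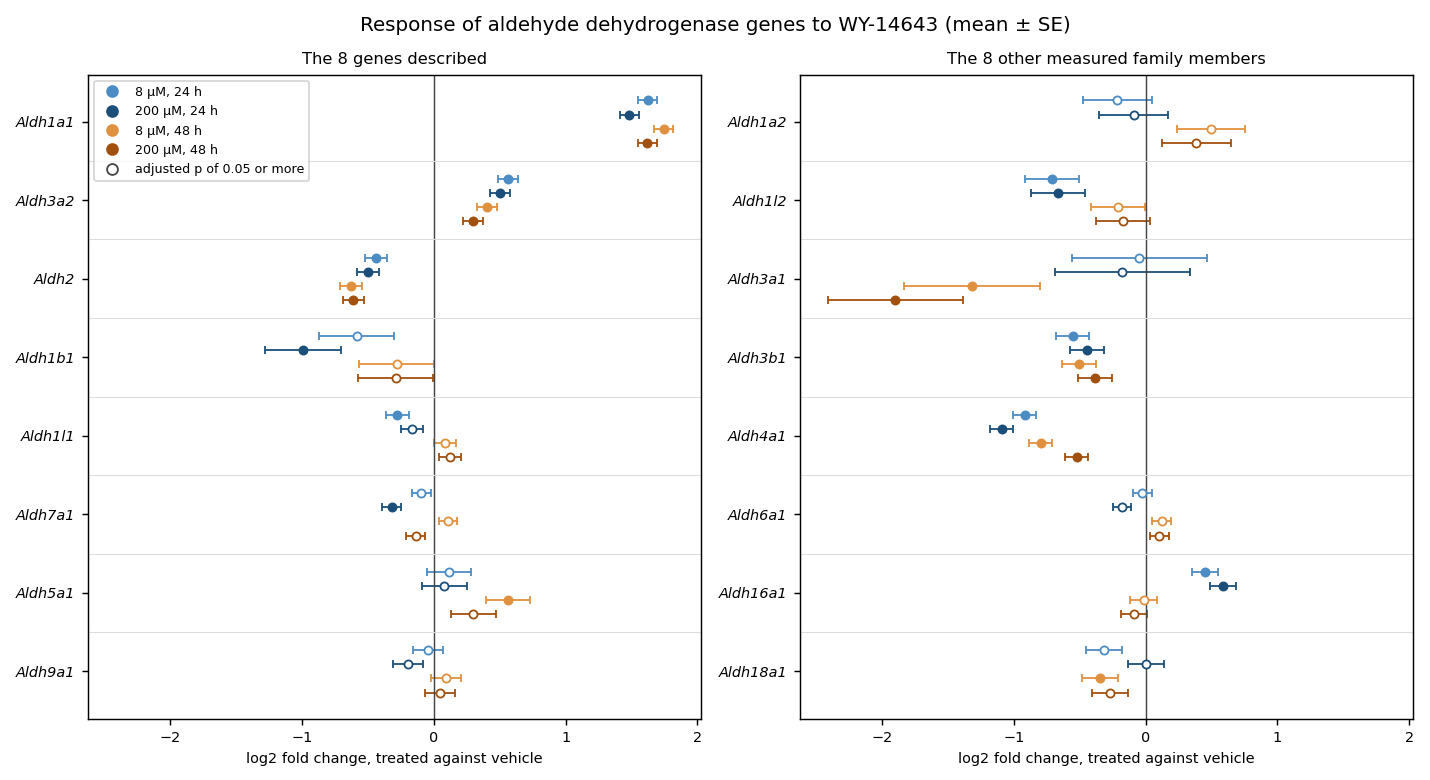
Log2 fold change against vehicle of the same time (mean and SE from the fit) of the 8 genes described and of the 8 other measured family genes; filled points have an adjusted p under 0.05 in limma. Of the 16 genes, Aldh1a1 and Aldh3a2 are those with 4 filled points to the right of 0, and Aldh2, Aldh3b1 and Aldh4a1 those with 4 to the left.

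The change of an effect from 24 h to 48 h was tested for each dose. With all arrays 0 of the 8 members passed at 8 µM, where 2.9% of all genes did, and 0 at 200 µM, where 2.41% did. At an unadjusted p under 0.05 it was Aldh1l1 alone at both doses (0.36 ± 0.12 and 0.29 ± 0.12 on the log2 scale, adjusted p = 0.11 and 0.24 in limma). The fall of Aldh1l1 at 8 µM was called at 24 h and not at 48 h, and the difference between these times was itself not called. Without 48 h vehicle replicate 4 the effect on Aldh3a2 was smaller at 48 h than at 24 h at both doses (-0.26 ± 0.07, adjusted p = 0.027, and -0.30 ± 0.07, adjusted p = 9.8e-03 in limma). The fall of Aldh2 was then larger at 48 h at 8 µM (-0.30 ± 0.08, adjusted p = 0.029), and Aldh3a2 rose in vehicle from 24 h to 48 h (0.27 ± 0.05, adjusted p = 5.6e-04).

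**Figure D4:**
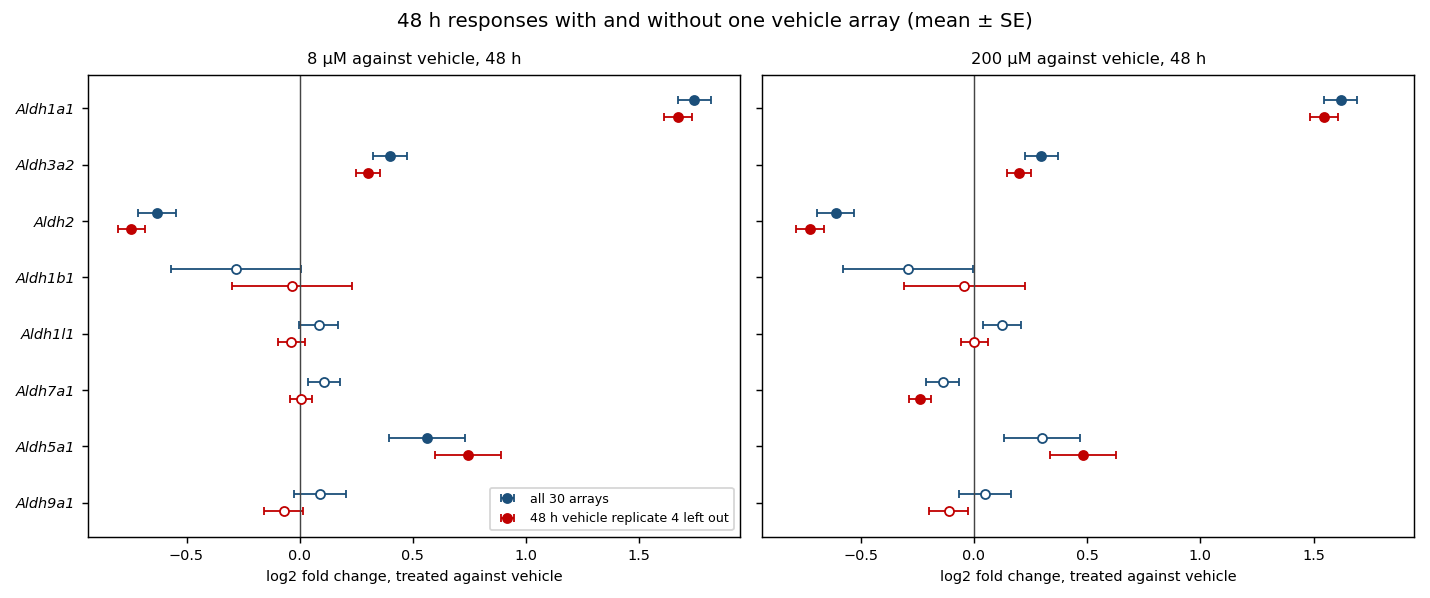
Log2 fold change against 48 h vehicle (mean and SE from the fit) with all 30 arrays and with 48 h vehicle replicate 4 left out; filled points have an adjusted p under 0.05 in limma. At 200 µM Aldh7a1 and Aldh5a1 have filled points only without that array (-0.24 and 0.48), and in both panels Aldh1a1, Aldh3a2 and Aldh2 are filled either way.

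To place each member among all genes, the 3 genes of highest Pearson correlation over the 30 arrays were taken. The 30 arrays fall into 6 groups that share treatment, so these values mostly describe likeness across groups. Aldh1a1 ran closest to Chkb (0.99), a choline kinase, Slc27a2 (0.99), a very-long-chain acyl-CoA synthetase, and Miox (0.99), which oxidises inositol. Chkb rose by 1.30 to 1.70 on the log2 scale over the 4 comparisons, Slc27a2 by 0.92 to 1.15 and Miox by 1.43 to 2.05. Aldh3a2 ran closest to Eci1 (0.93), an enoyl-CoA isomerase, Gys2 (0.93), the liver glycogen synthase, and Hsd17b10 (0.93), a mitochondrial dehydrogenase. Aldh2 ran closest to Jun (0.96), a transcription factor of the AP-1 complex, Myl12b (0.95), a myosin light chain, and Tram1 (0.95), of protein translocation. Jun fell in all 4 comparisons, with log2 fold changes from -0.88 to -0.67. Aldh7a1 ran closest to Acsm1 (0.89), and for the other 4 members the highest value was 0.79 to 0.86. Without 48 h vehicle replicate 4 the highest value over all genes was 0.83 in place of 0.86 for Aldh9a1, with Xdh in place of Saraf, and 0.79 in place of 0.81 for Aldh1l1, with Aox1 in place of Mccc2. The closest gene then also differed for Aldh1a1 (Slc27a2, 0.99), Aldh2 (C1s, 0.96), Aldh7a1 (Rab2a, 0.89) and Aldh5a1 (Plce1, 0.86). For Aldh1b1 it stayed Chrna7, at 0.75 in place of 0.79, and for Aldh3a2 it stayed Eci1.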

How the data were processed

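The deposited values are intensity values that the authors made with MAS5, per the submitters' processing notes. The version, scaling target and chip definition are not given in the sources used here. Probe sets were named through the platform annotation. Signals were taken as log2(signal + 16) with no further scaling. Probe sets whose signal exceeded the 40th percentile of all values (281) entered if this held on at least 5 of 30 arrays, and for genes with several the one of highest mean was used, giving 11545 genes. All arrays were fitted together, 1 mean per group, with limma 3.58.1 in R 4.3.3 (eBayes with a variance trend). Tests were two-sided and adjusted by Benjamini-Hochberg over all genes in each of 9 contrasts. On simulated data for 8 µM at 24 h over 11545 genes, 53% of changes of 0.5 and 79% of changes of 1 on the log2 scale were recovered. The simulation changed a far smaller share of genes than the 24.9% called in the data. The adjusted p depends on that share, so recovery in the data can differ.

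Alternatives were a pseudocount of 1 or 64, median centring or quantile normalization, a filter at the 60th percentile or none, averaging a gene's probe sets, fitting only the arrays compared, array weights, a block per run of 6 arrays, a fit without the variance trend, a required fold of 1.5 and leaving out each array in turn. Leaving 48 h vehicle replicate 4 out of every contrast, and each array out for Aldh3a1, was chosen after seeing the data. The labels give no replicate numbers, so replicates are numbered in deposit order. Motif searches and plots used Python 3.11.15. The members and gene lists were chosen with earlier results of these data known. Genes outside the family were named by rule: in each list the 3 with the largest moderated statistic, or one moving against most of its list, and the 3 most correlated with each member. Rose, fell and changed mean an adjusted p under 0.05.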

Additional observations from a re-analysis of the deposited data

Results flagged for a closer look

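Among 60 sets of 5 wells (10 probe sets in 6 groups), 8 held a well whose distance from its nearest neighbour took up most of the range of its group, and chance gives about 1 in 20. Of these 8 wells 4 are on the array of 48 h vehicle replicate 4. There Aldh7a1 read 12440 (next lowest 16846), Aldh9a1 5763 (next lowest 9144), the Aldh5a1 probe set 1371062_at 82.7 (next lowest 386) and the Aldh5a1 probe set 1391657_at 1488 (next highest 274).

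Replicate 5 of the 48 h wells at 8 µM held the highest Aldh1l1 value, 11867 against 10195 for the next well, and the highest Aldh9a1 value, 12469 against 9308. In replicate 1 of the same group the Aldh5a1 probe set 1371062_at read 724, below 881. In replicate 3 of the 24 h wells at 8 µM the Aldh5a1 probe set 1379900_at read 424, below 658.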

How the results depend on the processing

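The 18 calls made among the 8 members over the 9 contrasts gave 405 values under other settings. All kept their direction, 376 stayed called and 29 did not, 11 of these with an added fold change of 1.5 and 8 with median centring. Of 1362 values of uncalled differences 36 became called and 36 changed sign while uncalled. The highest adjusted p of any Aldh1a1 value against vehicle was 1.7e-08, while the 4 calls of Aldh3a2 were lost under the added fold change of 1.5 and under no other setting.

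Counts of changed members that moved by over 1.5 times were as follows. The share of all genes changed under the same setting stands in brackets. With quantile normalization they were 5 at 200 µM and 48 h (35.5%), 1 between doses at 24 h (3.97%), 3 and 1 for the change over time of the 8 µM and 200 µM effects (4.69% and 3.9%), and 2 in vehicle over time (10.9%). With array weights these 5 counts were 5, 1, 2, 1 and 2 (38.1%, 6.5%, 5.16%, 4.57% and 11.2%). With median centring they were 2 and 3 at 24 h for 8 µM and 200 µM (12.7% and 11.7%), 0 between doses at 48 h (0.832%) and 0 in vehicle over time (2.6%). It shifted the median of all genes by 0.19 and 0.17 on the log2 scale at 48 h for 8 µM and 200 µM, and the share of higher calls rose from 46.9% to 73.1% and from 49.6% to 73.7%. An added fold of 1.5 left 1 and 2 at 24 h for 8 µM and 200 µM (8.93% and 7.93%), 2 at 8 µM and 48 h (14.2%), 0 between doses at 48 h (0.953%) and 0 in vehicle over time (2.41%). Fitting only the arrays compared gave 1 and 0 between doses at 24 h and 48 h (5.15% and 2.28%), a block per run of 6 arrays 1 between doses at 24 h (3.4%) and 2 in vehicle over time (10.6%), and no variance trend 0 between doses at 48 h (4.4%). The cause of these moves was not tested.

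Leaving out 1 array at a time gave 4 to 4 changed members for 8 µM at 24 h (22.6% to 30.7% of all genes), 5 to 6 for 200 µM at 24 h (21.9% to 30.9%), 4 to 4 for 8 µM at 48 h (32.6% to 37%), 3 to 5 for 200 µM at 48 h (30.4% to 36%), 0 to 1 between doses at 24 h (2.11% to 5.86%) and at 48 h (3.45% to 8.98%), 0 to 2 and 0 to 1 for the change over time of the 8 µM and 200 µM effects (2.17% to 5.04% and 1.72% to 4.23%), and 1 to 2 in vehicle over time (7.19% to 11%). The labels give no replicate number. They number the arrays, and each run of 6 numbers holds 1 array per group, so the block per run is the paired fit that could be made, and it gave the same counts for the 4 comparisons with vehicle as the fit without it. The 5 arrays per group limit the precision, and the signals of Aldh1b1 and of the Aldh5a1 probe set 1391657_at lay around the filter level.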
